A study of Mus musculus with 4 samples.

Results

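Myosin light chains that set the chambers of the heart apart, and the calcium pump regulator sarcolipin, were followed by name through a single-nucleus RNA sequencing (snRNA-seq) experiment on neonatal mouse cardiomyocytes. The set was chosen as a list of names and held 5 of the 22574 genes of the count matrix: Myl2, Myl3, Myl4, Myl7 and Sln. All 5 were found in the matrix, and no member was lost to a filter on low values when levels were measured.

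Nuclei came from 4 libraries, 1 for each combination of genotype and surgery, titled MI-WT, MI-KO, Sham-WT and Sham-KO. Each animal carried loxP-flanked Nrf1 alleles (Nrf1fl/fl), and the KO pups also carried a Cre recombinase under the alpha myosin heavy chain promoter (aMHC-Cre), which acts in cardiomyocytes of both atrium and ventricle. The treatment protocol gives a C57BL/6 background, while the strain field differs between the 4 samples. Pups had surgery at postnatal day 3, either myocardial infarction (MI) by tying the left anterior descending coronary artery or a Sham thoracotomy without the tie. Per the study's methods, hearts were taken 1 day later, and a library was made from 4 to 6 pooled hearts of its genotype, cut below the plane of the ligation. Each group is therefore 1 pool and 1 library. No difference below has a replicate check, no test was made, and every interval is a 95% interval for counting error alone.

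A myosin motor of the heart carries a regulatory and an essential light chain on each head. In the ventricle these are Myl2 (regulatory) and Myl3 (essential, also the light chain of slow skeletal muscle). In the atrium they are Myl7 (regulatory) and Myl4 (essential, also made in the embryonic ventricle and in embryonic skeletal muscle). Sarcolipin, from Sln, is a small membrane protein that inhibits the calcium pump SERCA and is made mainly in the atrium in the mouse heart, whereas its relative phospholamban, from Pln, prevails in the ventricle. Tissue below the ligation plane of this artery is mainly ventricle.

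The 5 genes lie on 3 chromosomes of GRCm38, by the GENCODE M21 annotation. Myl2 spans chr5:122100951-122113472 on the plus strand and overlaps Ccdc63. Myl3 spans chr9:110741861-110769798 on the plus strand and overlaps Pth1r. Sln, at chr9:53850164-53854560 on the plus strand, overlaps no annotated gene. Myl4, at chr11:104550663-104595753 on the plus strand, overlaps 4 annotated genes, 2 of them in the matrix. Myl7, at chr11:5896637-5898782 on the minus strand, overlaps none. Reads in introns were counted, and the use of strand in counting was not given in the sources used here. Whether the overlaps added reads to the counts of Myl2, Myl3 and Myl4 or took reads from them was not tested.

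Promoter sequence is shown for Myl3, Myl4 and Myl7, because Myl4 and Myl7 were highest in the same library and Myl3 was not. The sequences run 5′ to 3′ up to the base before a start site, from RefSeq promoter windows on GRCm38.p6, at chr9:110763428-110763645 on the plus strand for Myl3, chr11:104550413-104550662 on the plus strand for Myl4 and chr11:5898783-5899032 on the minus strand for Myl7. Capitals mark matches to any of 6 motifs, searched on both strands: GATAA, the E-box CANNTG, the MCAT element CATTCC, the NKX element TNAAGTG, the CArG box and the MEF2 site.
Myl3: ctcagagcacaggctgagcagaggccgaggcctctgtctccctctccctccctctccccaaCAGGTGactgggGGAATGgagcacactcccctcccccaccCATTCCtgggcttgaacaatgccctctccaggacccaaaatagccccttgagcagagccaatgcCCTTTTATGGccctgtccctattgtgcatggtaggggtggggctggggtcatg
Myl4: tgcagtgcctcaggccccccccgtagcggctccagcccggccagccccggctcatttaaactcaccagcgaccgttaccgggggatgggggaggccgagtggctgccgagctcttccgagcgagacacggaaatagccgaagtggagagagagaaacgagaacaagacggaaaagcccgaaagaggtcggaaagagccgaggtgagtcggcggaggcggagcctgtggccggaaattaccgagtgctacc
Myl7: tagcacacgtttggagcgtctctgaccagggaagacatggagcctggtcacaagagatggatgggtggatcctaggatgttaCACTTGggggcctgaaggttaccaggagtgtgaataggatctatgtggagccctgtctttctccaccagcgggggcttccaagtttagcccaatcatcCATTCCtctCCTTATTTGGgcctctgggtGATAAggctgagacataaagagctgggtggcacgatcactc

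In the Myl7 window, CATTCC lay at bases 70 to 65 before the start, the CArG box CCTTATTTGG at bases 61 to 52 and GATAA at bases 41 to 37, with an E-box farther out at bases 168 to 163. The Myl3 window, 218 bases long, held a CArG box, CCTTTTATGG, at bases 53 to 44, an E-box at bases 157 to 152 and MCAT matches at bases 145 to 140 (minus strand) and 117 to 112. None of the 6 motifs was found in the 250 bases before the Myl4 start, which is the most upstream of its annotated starts. None of the matches overlapped another. Among 32851 RefSeq windows of 250 bases, 1.47% held a CArG box, 1.69% a MEF2 site, 10.1% the NKX element, 12.6% CATTCC, 22.6% GATAA and 66.2% an E-box. At 218 bases, the length of the Myl3 window, 1.29% held a CArG box and 11.4% CATTCC. A CArG box was thus shared by an atrial and a ventricular light chain, and such a match is a description of letters, not a binding site. Myl2 and Sln had no window with a matching start.

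The 4 libraries held 2003 (MI-WT), 1848 (MI-KO), 1406 (Sham-WT) and 3328 (Sham-KO) nuclei, with 4984625 to 9106522 UMIs (unique molecular identifiers, each standing for 1 captured RNA molecule) per library and a median of 2572 to 3959 UMIs per nucleus. The authors kept cardiomyocyte nuclei alone, and sorted them into populations CM1, CM2, CM4 and CM5. Tnnt2, Ttn, Actn2, Ryr2 and Myh6, which mark cardiomyocytes, summed to between 27514 and 30594 CPM (counts of a gene per 1000000 UMIs) in the 4 libraries. Of barcode sequences, 9 occurred in more than 1 library. Nfe2l1, the gene of the deleted factor, stood at 47.4 CPM in the library labelled MI-WT, 55.3 in MI-KO, 62.2 in Sham-WT and 50.5 in Sham-KO. On the log2 scale, KO over WT stood at 0.22 (0.02 to 0.43) after MI and -0.30 (-0.51 to -0.09) after Sham, so Nfe2l1 went against the label in the MI pair. Whether these reads cover the deleted part of the gene was not given in the sources used here. Libraries are therefore named by their labels throughout.

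Myl2 and Myl3 were abundant in every library, and Myl4, Myl7 and Sln were scarce. Myl2, the ventricular regulatory chain, stood at 2418 CPM (2384 to 2453) in the library labelled MI-WT, 2909 (2870 to 2949) in MI-KO, 3623 (3570.1 to 3676) in Sham-WT and 5240.2 (5193 to 5287) in Sham-KO. Myl3, the ventricular essential chain, followed the same order, at 2169, 2741, 3550.3 and 5561 CPM. For both genes the intervals of the 4 libraries did not overlap, and the library labelled Sham-KO was highest and the one labelled MI-WT lowest. UMIs of Myl2 were found in at least 99.9% of nuclei of each library and those of Myl3 in at least 99.8%, with medians of 9 to 14 UMIs of Myl2 per nucleus.

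Myl4, the atrial essential chain, stood at 21.7 CPM (18.6 to 25.2) in the library labelled MI-WT, 61.0 (55.5 to 66.9) in MI-KO, 17.5 (14.0 to 21.5) in Sham-WT and 23.8 (20.8 to 27.2) in Sham-KO. The MI-KO library stood above the others, whose intervals overlapped their neighbours in the order. Myl7, the atrial regulatory chain, had 9.68 CPM (7.64 to 12.1), 46.7 (41.9 to 51.9), 6.82 (4.72 to 9.53) and 11.3 (9.23 to 13.7) in the same order of libraries. Again MI-KO stood apart, and the intervals of MI-WT overlapped those of both Sham libraries. Sln was counted 8, 21, 2 and 7 times in the 4 libraries, or 1.01, 2.85, 0.401 and 0.769 CPM, and its intervals overlapped between MI-WT, with an upper bound of 1.98 CPM, and MI-KO, with a lower bound of 1.77 CPM.

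The library labelled MI-KO also had the highest share of nuclei with a UMI of each atrial gene. Myl4 was found in 7.14% of nuclei (6.05% to 8.36%) of the library labelled MI-WT, 13.3% (11.7% to 14.9%) of MI-KO, 5.48% (4.35% to 6.80%) of Sham-WT and 5.95% (5.17% to 6.81%) of Sham-KO. Myl7 was found in 3.39%, 7.03%, 2.20% and 3.03% of them, and Sln in 8, 17, 2 and 7 nuclei. Depth was then made equal by drawing 1000 UMIs from every nucleus, without 1 shallower nucleus of MI-WT and 6 of Sham-WT. Myl4 was then found in 2.0% (1.43% to 2.71%) of nuclei of MI-WT, 4.76% (3.84% to 5.83%) of MI-KO, 2.0% (1.33% to 2.88%) of Sham-WT and 2.31% (1.83% to 2.88%) of Sham-KO, so MI-KO alone stayed apart at equal depth. Myl7 was then found in 0.899%, 2.54%, 1.21% and 1.44%, and the interval of MI-KO (1.87% to 3.37%) overlapped those of both Sham libraries. No cell type that should lack these genes was kept in the matrix, so the share that free RNA gives was not tested.

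Per kilobase of annotated exon, which is a rough scale because the kit reads the 3′ end and introns were counted, Myl2 stood at 1240.2 CPM in the library labelled MI-WT and Myl3 at 1061. On that scale Myl7 was at 16.4, Myl4 at 4.69 and Sln at 0.763 CPM per kilobase in the same library. The order Myl2, Myl3, Myl7, Myl4, Sln held in the libraries labelled MI-WT, MI-KO and Sham-WT. In Sham-KO, Myl3 at 2721 came before Myl2 at 2687.

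**Figure D1:**
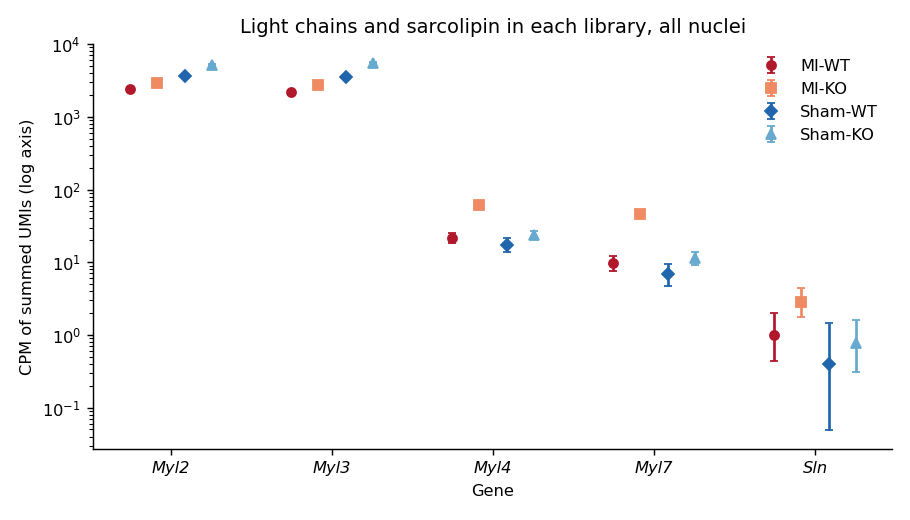
Level of each member in each library over all nuclei, in CPM of summed UMIs on a log axis. Points are the 4 libraries, and bars are exact Poisson 95% intervals for counting error. Myl2 and Myl3 lie between 2169 and 5561 CPM, and the MI-KO library is highest for Myl4 (61.0), Myl7 (46.7) and Sln (2.85).

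The KO and WT libraries were compared within each surgery to ask how the light chains differ when Nrf1 is deleted in cardiomyocytes. A gene was called when its CPM differed by 1.5-fold or more between the sums, provided it had at least 20 UMIs in the pair. Between the libraries labelled MI-KO and MI-WT, 3 of 5 members (Myl4, Myl7 and Sln) were past the fold and higher, where 3.94% of 13678 genes were called higher, and 0 of 5 were lower, where 3.68% were called lower. The log2 ratio of CPM was 1.49 (1.23 to 1.75) for Myl4, 2.27 (1.91 to 2.65) for Myl7 and 1.5 (0.27 to 2.89) for Sln, or 2.81-fold, 4.83-fold and 2.84-fold. Myl2 differed by 0.27 (0.24 to 0.29) and Myl3 by 0.34 (0.31 to 0.37) on the log2 scale, under the fold. The median of all genes was 0.03. Both atrial light chains thus stood well beyond the ventricular ones in the MI pair of libraries.

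Much of that difference lay in few nuclei. The 10 nuclei with the most UMIs of each gene held 60.8% of Myl7 and 39.4% of Myl4 UMIs of the library labelled MI-KO, against 24.7% and 23.1% in MI-WT. Without the 10 nuclei of each library that held the most UMIs of Myl4, Myl7 and Sln together, the log2 ratio of MI-KO over MI-WT was 1.07 (0.77 to 1.37) for Myl4, 1.27 (0.82 to 1.73) for Myl7 and 0.62 (-0.92 to 2.25) for Sln. The remaining nuclei of MI-KO still held more of both atrial light chains per UMI than those of MI-WT, past the fold, while Sln was no longer separable from no difference. In CM1 nuclei, the bulk of each library, Myl4 differed by 0.91 (0.56 to 1.26) and Myl7 by 1.05 (0.54 to 1.57). These were the 2 of 4 members called higher in CM1, where 4.54% of 12910 genes were, and 0 were called lower, where 3.99% were.

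Between the libraries labelled Sham-KO and Sham-WT, 2 of 4 members with enough UMIs were called higher, where 5.74% of 13370 genes were called higher, and 0 were called lower, where 5.61% were. These were Myl3, with a log2 ratio of 0.65 (0.62 to 0.67), and Myl7, with 0.73 (0.16 to 1.33) on 103 against 34 UMIs. Myl2 at 0.53 (0.51 to 0.56) and Myl4 at 0.45 (0.08 to 0.83) were under the fold, and Sln had too few UMIs to be called. These calls sit close to the fold and depend on the scaling. Myl2 was past it with TMM scaling (0.62) and in CM1 nuclei (0.68), Myl3 was under it when nuclei were thinned to 1000 UMIs (0.57), and Myl7 was at 0.01 (-0.77 to 0.84) when thinned. In CM1 nuclei 4 of 4 members were called higher, where 7.85% of genes were, and 0 lower, where 6.64% were; Myl3 was at 0.86, Myl4 at 0.73 (0.30 to 1.18) and Myl7 at 0.68 (0.04 to 1.35).

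MI and Sham libraries were compared within each genotype label, and the 4 comparisons share libraries. Between those labelled MI-WT and Sham-WT, 1 of 4 members was called lower, Myl3 at -0.71 (-0.74 to -0.68) on the log2 scale, where 15.9% of 13415 genes were called lower, and 0 were called higher, where 12.5% were. Myl2 was at -0.58 (-0.61 to -0.55), just under the fold. In CM1 nuclei 0 of 4 members were called in either direction, where 10.4% of genes were called higher and 14.6% lower, with Myl3 at -0.53 and Myl2 at -0.40. Myl4 at 0.32 (-0.06 to 0.71) and Myl7 at 0.50 (-0.10 to 1.13) could not be told from no difference at this depth. Between the libraries labelled MI-KO and Sham-KO, Myl2 at -0.85 (-0.87 to -0.83) and Myl3 at -1.02 (-1.04 to -1.0) were called lower, where 12.5% of 13806 genes were, and Myl4 at 1.36 (1.12 to 1.60), Myl7 at 2.05 (1.73 to 2.38) and Sln at 1.89 (0.60 to 3.37) were called higher, where 14.1% were. In that pair the ventricular members were thus lower and the atrial members higher, with 5 of 5 past the fold. In CM1 nuclei Myl4 was at 0.57 (0.26 to 0.87), under the fold, and Myl7 at 0.73 (0.28 to 1.18), so that 1 of 4 members was called higher, where 12.1% of genes were, and 2 lower, where 12.8% were.

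Depth and mitochondrial RNA moved with the levels of Myl2 and Myl3. Within the library labelled Sham-KO, Myl2 was at 6460 CPM in the tertile of nuclei with the fewest UMIs, 5463 in the middle tertile and 4479 in the tertile with the most. In MI-WT the same tertiles gave 3128, 2488 and 2031 CPM, and Myl2 and Myl3 were lower at each step in each of the 4 libraries. By percent of UMIs from the mitochondrial genome, Myl2 went from 2762 CPM in the lowest tertile to 5429 in the highest in Sham-WT, and from 4441 to 6078 in Sham-KO. The median nucleus had 5.37% of mitochondrial UMIs in MI-WT, 5.29% in MI-KO, 6.58% in Sham-WT and 8.98% in Sham-KO, the last 2 being also the libraries with the most Myl2 and Myl3. Hemoglobin genes and Alas2, markers of red blood cells, summed to 4519, 2123, 3296 and 2318 CPM in the order MI-WT, MI-KO, Sham-WT and Sham-KO, with all 5 genes above 0. The part of depth, mitochondrial RNA and blood RNA in the differences between libraries was not tested.

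**Figure D2:**
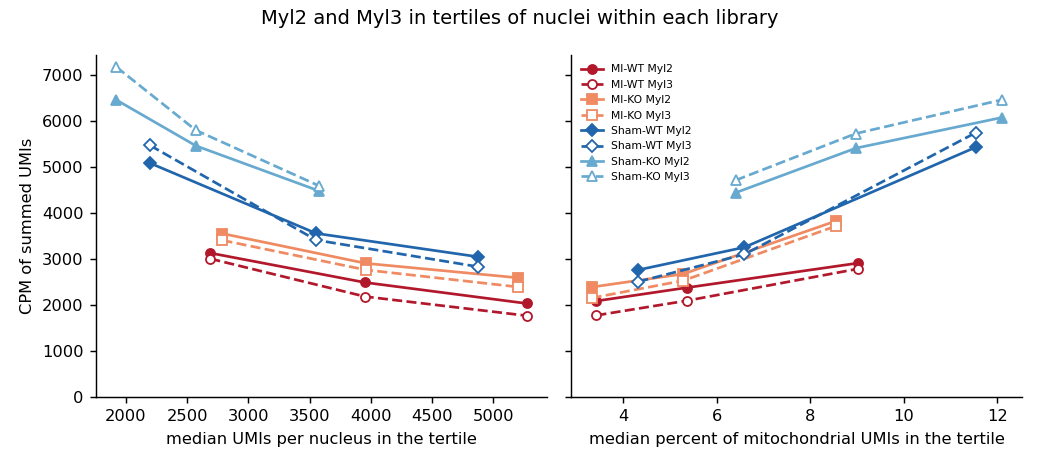
Level of Myl2 (solid lines, filled points) and Myl3 (dashed lines, open points) in CPM, in tertiles of the nuclei of each library ordered by UMIs per nucleus (left) or by percent of UMIs from the mitochondrial genome (right). In Sham-KO, Myl2 goes from 6460 CPM in the shallowest tertile to 4479 in the deepest.

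The populations were clustered by the authors on genes of these nuclei, so the levels below describe populations and test nothing. CM4 cells, the population the study follows for its entry into the cell cycle after injury, held the most Myl2 and Myl3 per UMI in each library. Myl2 in CM4 cells stood at 4697 CPM (4492 to 4908) in the library labelled MI-WT, 7146 (6866 to 7435) in MI-KO, 9057 (8763 to 9359) in Sham-WT and 7876 (7673 to 8082) in Sham-KO. In CM1 cells the values were 2378, 2755, 3145 and 5038, in CM5 cells 2011, 2516, 3533 and 5246, and in CM2 cells 1946, 2619, 2409 and 4149 CPM. Myl3 in CM4 cells was at 5354, 7437, 10334 and 8683 CPM. CM4 nuclei were also shallow, with medians of 1715.5 to 2394 UMIs against 2632 to 4043.5 in CM1, and rich in mitochondrial UMIs, with medians of 9.47% to 14.6% against 5.05% to 8.78%; the part of this in their Myl2 level was not tested.

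The direction of KO over WT for the ventricular chains differed between surgeries in CM4 cells. After MI, CM4 cells of the KO library had more Myl2, by 0.61 (0.52 to 0.69) on the log2 scale, and more Myl3, by 0.47 (0.39 to 0.56). After Sham, CM4 cells of the KO library had less of both, with -0.20 (-0.26 to -0.14) for Myl2 and -0.25 (-0.31 to -0.19) for Myl3. In CM1 cells the ratio was above 0 in both surgeries, at 0.21 and 0.68 for Myl2 and 0.32 and 0.86 for Myl3. The Sham pair thus differed in opposite directions in CM1 and CM4 cells, and the difference between surgeries in CM4 cells was not tested. In CM4 cells of the Sham pair 1 of 4 members was called higher, Myl7 on 17 against 4 UMIs at 1.20 (-0.41 to 3.23), where 19.9% of 6811 genes were, and 0 lower, where 10.8% were. CM4 counts were 192, 118, 192 and 351 nuclei in the order MI-WT, MI-KO, Sham-WT and Sham-KO. Red blood cell genes in CM4 cells summed to 8411, 3538, 12805 and 7833 CPM, lower in the KO library of either surgery.

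Atrial light chains were concentrated in CM4 cells of a single library. Myl4 in CM4 cells stood at 61.7 CPM (40.3 to 90.4) in the library labelled MI-WT, 547 (472 to 631) in MI-KO, 43.0 (25 to 68.8) in Sham-WT and 28.7 (17.8 to 43.9) in Sham-KO. Myl7 in CM4 cells was at 23.7 (11.4 to 43.6), 608 (528 to 696), 10.1 (2.76 to 25.9) and 23.3 (13.6 to 37.3) CPM. The library labelled MI-KO was far above the rest in both. Sln had 10 UMIs in CM4 cells of MI-KO, and 1, 0 and 2 in those of MI-WT, Sham-WT and Sham-KO. For MI-KO over MI-WT in CM4 cells the log2 ratio was 3.15 (2.55 to 3.8) for Myl4 and 4.68 (3.77 to 5.76) for Myl7, and 3 of 4 members with enough UMIs were called higher (Myl2, Myl4 and Myl7), where 12.3% of 5686 genes were, and 0 lower, where 19.3% were. Between MI-KO and Sham-KO in CM4 cells, Myl4 at 4.25 (3.6 to 4.98) and Myl7 at 4.71 (3.99 to 5.51) were called higher, where 17.7% of genes were, and 0 of 4 members lower, where 19.7% were, with Myl2 at -0.14 and Myl3 at -0.22. Between MI-WT and Sham-WT in CM4 cells, Myl2 and Myl3, both at -0.95, were called lower, where 16% of genes were, and 0 of 3 members higher, where 28.5% were. Outside CM4, Myl4 in the MI-KO library was at 34.9 CPM in CM1, 55.1 in CM2 and 42.0 in CM5, and Myl7 at 17.9, 24.1 and 23.5.

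The CM4 values rested on a handful of nuclei. Of the Myl7 UMIs of CM4 cells in the library labelled MI-KO, 96.2% lay in 10 of 118 nuclei, and of Myl4, 87.8%. Without the 10 nuclei of each library with the most atrial UMIs, the log2 ratio of MI-KO over MI-WT in CM4 cells was 1.21 (0.28 to 2.20) for Myl4 and 1.40 (-0.12 to 3.10) for Myl7. The Myl7 difference in CM4 cells was then not detectable at this depth, and that of Myl4 was smaller.

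**Figure D3:**
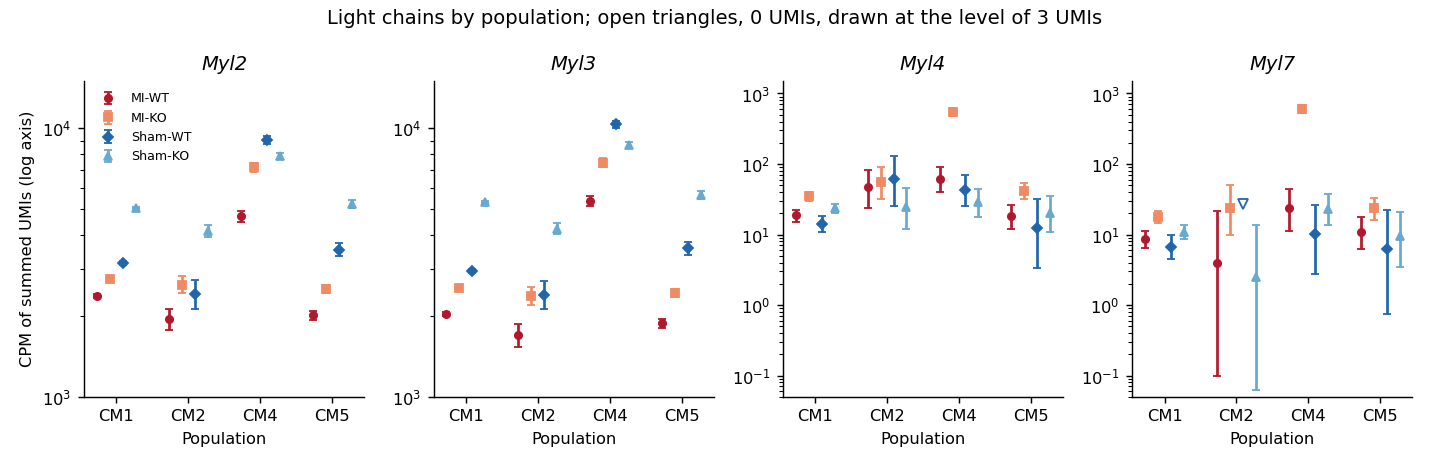
Level of the 4 light chains by population (horizontal axis) and library (colour and marker), in CPM of summed UMIs on log axes that differ between panels. Bars are exact Poisson 95% intervals, and an open triangle marks 0 UMIs, drawn at the level of 3 UMIs. Myl2 and Myl3 are highest in CM4 in each library, and Myl4 (547 CPM) and Myl7 (608 CPM) are highest in CM4 of MI-KO.

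**Figure D4:**
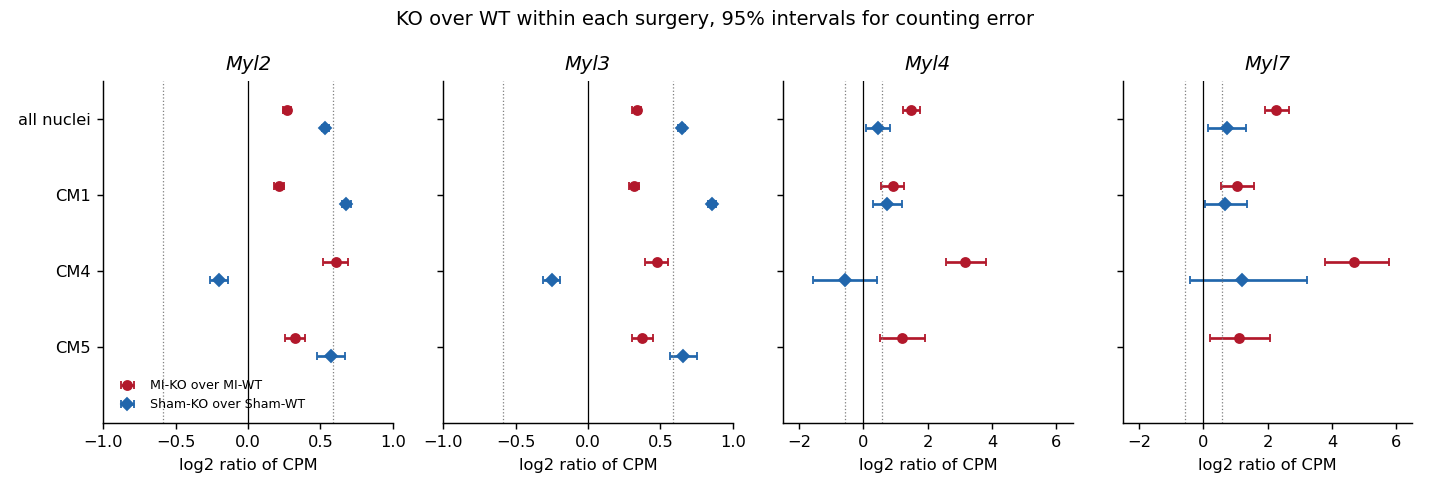
Log2 ratio of CPM of KO over WT, after MI (red circles) and after Sham (blue diamonds), for all nuclei and for CM1, CM4 and CM5, with 95% conditional binomial intervals for counting error; sums with under 20 UMIs are left out and dotted lines mark 1.5-fold. In CM4, Myl2 lies at 0.61 after MI and -0.20 after Sham, and Myl7 at 4.68 after MI.

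The balance of the regulatory and the essential chain was read from the ratio of their UMIs. The ratio of Myl2 to Myl3 UMIs was 1.11 (1.09 to 1.14) in the library labelled MI-WT, 1.06 (1.04 to 1.08) in MI-KO, 1.02 (1.0 to 1.04) in Sham-WT and 0.942 (0.931 to 0.954) in Sham-KO. In CM4 cells it was below 1 in each library, from 0.876 in Sham-WT to 0.961 (0.909 to 1.02) in MI-KO, the last with an interval that includes 1. The ratio of Myl7 to Myl4 UMIs was 0.445 (0.336 to 0.585), 0.766 (0.664 to 0.884), 0.391 (0.255 to 0.587) and 0.475 (0.372 to 0.603) in the 4 libraries. It was highest in the library labelled MI-KO, and within it 1.11 (0.909 to 1.36) in CM4 cells against 0.511 (0.395 to 0.657) in CM1 cells. These MI-KO and CM4 ratios leaned on few nuclei. The 11 nuclei of MI-KO with 5 or more atrial UMIs held 211 of its 344 Myl7 UMIs and 181 of its 449 Myl4 UMIs. In its CM4 cells, the 10 nuclei with the most UMIs of each gene held 96.2% of Myl7 and 87.8% of Myl4.

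Genes most like each member were sought over the 16 sums of library by population, by Pearson's r of log2(CPM + 10) among 4594 genes with 1000 or more UMIs; sums of a library share its nuclei and depth, and r is a description. Myl2 was most like Myl3 (r = 0.997), the mitochondrial malate dehydrogenase gene Mdh2 (0.994) and the cardiac troponin I gene Tnni3 (0.994). Myl3 was most like Myl2, then Ndufb10 of respiratory complex I (0.995) and Atp5b of ATP synthase (0.994). Myl4 was most like Cnih4 (0.866), Wbp11 (0.809) and Eef1a2 (0.807). Myl7 was most like the smooth muscle light chain gene Myl9 (0.892), Prmt1 (0.823) and the smooth muscle actin gene Acta2 (0.818), and Sln like Myl9 (0.826), Rbis (0.804) and Ssr3 (0.765). Between the chamber types, r of Myl2 was 0.292 with Myl4 and 0.412 with Myl7, while r of Myl4 with Myl7 was 0.837. Both Myl4 and Myl7 had their highest value in the CM4 sum of MI-KO, and Sln had 38 UMIs in all.

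Nuclei that carried the atrial genes were then counted. At least 2 of Myl4, Myl7 and Sln were found in 9 of 2003 nuclei (0.449%, 0.206% to 0.851%) of the library labelled MI-WT, 34 of 1848 (1.84%, 1.28% to 2.56%) of MI-KO, 2 of 1406 (0.142%, 0.0172% to 0.513%) of Sham-WT and 9 of 3328 (0.270%, 0.124% to 0.513%) of Sham-KO. MI-KO had the highest share, and the intervals of the other 3 overlapped. All 3 genes were found in 7 nuclei of MI-KO and in 0 nuclei of the others, with exact upper bounds of 0.184%, 0.262% and 0.111% of nuclei in MI-WT, Sham-WT and Sham-KO. Exactly 1 of the genes was found in 201, 317, 106 and 288 nuclei in the order MI-WT, MI-KO, Sham-WT and Sham-KO. Of the 34 nuclei of MI-KO, 12 were CM1, 3 CM2, 12 CM4 and 7 CM5, which is 0.917% of CM1, 4.48% of CM2, 10.2% (5.37% to 17.1%) of CM4 and 1.97% of CM5 nuclei.

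Myl4 and Myl7 occurred together in 30 nuclei of the library labelled MI-KO, or 12.2% of the nuclei with Myl4 and 23.1% of those with Myl7; among its nuclei without Myl4, 6.24% had Myl7. In MI-WT they occurred together in 7 nuclei, 4.90% of those with Myl4, with Myl7 in 3.28% of nuclei without Myl4. In Sham-WT and Sham-KO the shares with Myl7 were 2.60% and 3.54% of nuclei with Myl4, near the 2.18% and 3.0% of nuclei without it. Sln was found in 17 nuclei of MI-KO, of which 11 also had Myl4.

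A few nuclei had atrial UMIs far above the rest. Summed over Myl4, Myl7 and Sln, 10 nuclei had 10 or more UMIs, 8 of them in the library labelled MI-KO and 2 in MI-WT, with 0 in either Sham library. They held 136, 78, 56, 44, 23, 18, 16, 14, 14 and 14 atrial UMIs, and the nuclei just below that number held 8, 7, 7, 6 and 5. The nuclei with 23 or more were all CM4 cells of MI-KO. The first of them held 57 UMIs of Myl4, 78 of Myl7 and 1 of Sln in a total of 5871, beside 8 of Myl2 and 20 of Myl3.

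Myl2, which had not been used to choose these 10 nuclei, was found in at least 99.9% of nuclei of each library. Each of the 10 nuclei carried it as well. In the order of their atrial UMIs they held 8, 9, 11, 28, 36, 16, 10, 11, 13 and 14 UMIs of Myl2, or 1363 CPM in the first and at most 7730 CPM in the fifth. Against the other nuclei of its library, the first stood at the 7.41 percentile of Myl2 CPM, the second at 36.3, the third at 46.9, the fourth at 95.3 and the fifth at 97.7. Against the whole library, nuclei rich in atrial chains thus ran from low to high Myl2. Part of that range goes with population, because CM4 nuclei of MI-KO had a median of 6383 CPM of Myl2, with quartiles of 4537 and 7958. The CM4 nuclei of MI-KO among the 10 stood at 1363, 2285, 2589, 6351, 7730 and 7683 CPM. Within their own population they thus ran from low Myl2 to values under the upper quartile. The totals of the 10 nuclei, 1692 to 6138 UMIs, spanned the medians of their libraries (3951 in MI-WT and 3959 in MI-KO). Scrublet had been run by the authors to remove doublets, and whether a nucleus held RNA of more than 1 cell was not tested.

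**Figure D5:**
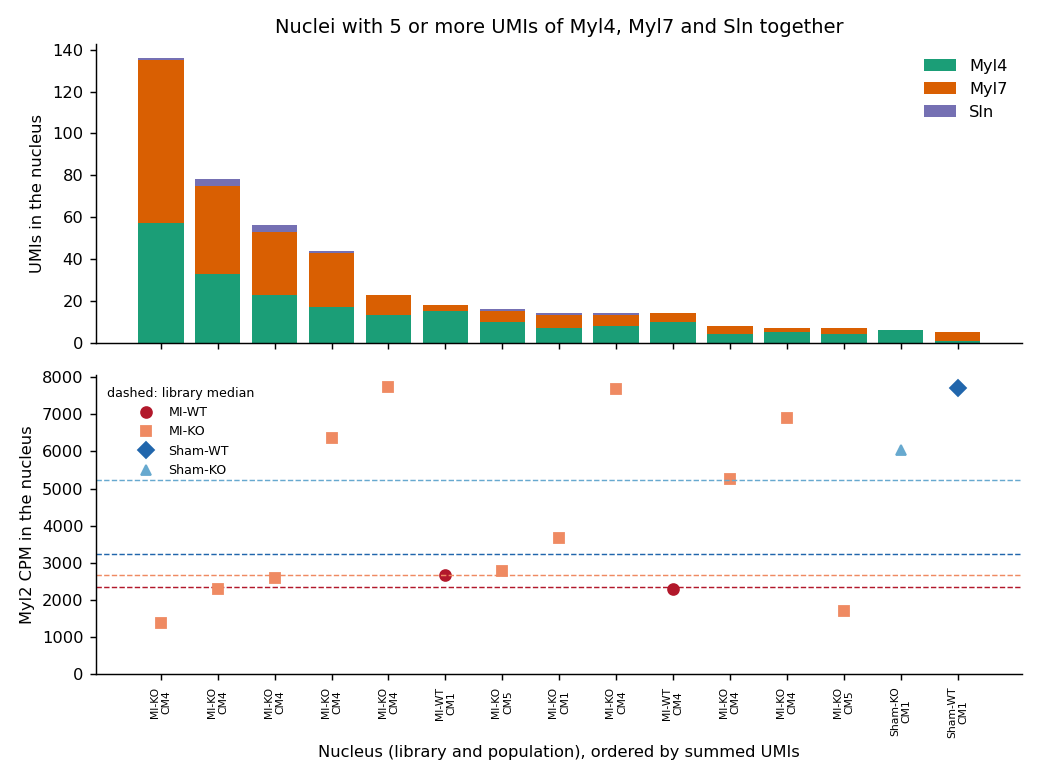
The 15 nuclei with 5 or more UMIs of Myl4, Myl7 and Sln together, ordered by that sum; the label under each gives its library and population. The upper panel stacks the UMIs of the 3 genes (136 in the first nucleus), and the lower panel gives Myl2 CPM in the same nucleus, from 1363 upward, with dashed lines at the median nucleus of each library.

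Over sums of nuclei, Myl2 was not lower where atrial genes were found. In the library labelled MI-KO, nuclei with at least 2 atrial genes had 3563 CPM of Myl2 (3252 to 3895) and nuclei with 0 had 2851 (2808 to 2894), a log2 ratio of 0.32 (0.19 to 0.45). Myl3 was at 3769 against 2682 CPM, or 0.49 (0.36 to 0.62). Nuclei with exactly 1 atrial gene lay between, at 3107 CPM of Myl2. For nuclei with at least 2 atrial genes over nuclei with 0, a gene needed its minimum of UMIs in the former, which favours genes higher there. Of the 1140 genes kept by that rule, 27.5% were called higher and 8.68% lower. These shares are therefore not an even background for the members. Myl2 and Myl3 were under the fold. The ratio was -0.10 (-0.40 to 0.19) for Myl2 in MI-WT, 0.06 (-0.19 to 0.30) in Sham-KO and 1.76 (1.38 to 2.12) in Sham-WT, the last on 2 nuclei.

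Within CM4 cells the order turned. Nuclei of CM4 in the library labelled MI-KO with at least 2 atrial genes had 5008 CPM of Myl2, and those with 0 had 6905, a log2 ratio of -0.46 (-0.68 to -0.25) on 12 and 81 nuclei. For Myl3 it was -0.39 (-0.59 to -0.19). With 10 or more atrial UMIs, on 6 nuclei, Myl2 was at 4231 CPM and the ratio was -0.71 (-1.01 to -0.42). For the CM4 nuclei with at least 2 atrial genes and under 10 atrial UMIs it was -0.17 (-0.47 to 0.11). In CM1 cells of the same library the ratio was above 0, at 0.31 (0.09 to 0.52) for Myl2 on 12 nuclei, and in CM5 cells its interval included 0. CM4, where Myl2 is highest, gave 12 of the 34 nuclei with at least 2 atrial genes and 81 of the 1497 with none, and the part of this mix in the pooled ratio was not tested.

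Other atrial genes were read in the same nuclei from a list that leaves the members out. Of the 8 nuclei of the library labelled MI-KO with 10 or more atrial UMIs, 6 were CM4, so values are given against nuclei with no atrial gene of the whole library and then within CM4, the latter a comparison chosen after seeing the data. In the 8 nuclei the 15 genes summed to 13999 CPM against 4007, a log2 ratio of 1.80 (1.67 to 1.94), with 10 of 15 above 0. CM4 cells of this library stood at 9698 CPM as a whole, and within CM4 the 6 nuclei were at 14990 CPM against 7419 in 81 nuclei with no atrial gene, a smaller ratio of 1.01 (0.85 to 1.18). Nppa, which encodes atrial natriuretic peptide and is also made by the stressed ventricle, gave most of it, at 11486 against 3033 CPM, and within CM4 at 12411 against 6452 CPM. Beyond Nppa, the ratio over the whole library was 7.88 (5.66 to 10.21) for the myosin-binding protein gene Mybphl on 5 against 4 UMIs, 6.56 (4.66 to 8.24) for Stard10, 4.97 (3.25 to 6.35) for Dkk3, 3.43 (1.95 to 4.60) for the transcription factor gene Tbx5 and 2.03 (1.24 to 2.72) for Clu. Within CM4, Clu was at 0.76 (-0.22 to 1.64), an interval that includes 0. The others there were higher on very few UMIs: 5 against 0 for Mybphl, 5 against 1 for Stard10, 4 against 2 for Dkk3 and 4 against 1 for Tbx5. Bmp10, Nr2f1, Kcna5 and Gja5 had 0 UMIs in the 8 nuclei, whose few UMIs allow no limit below the level of the other nuclei.

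Ventricular genes, read without Myl2 and Myl3, differed within CM4. The 10 genes of the ventricular list summed to 2832 CPM in the 8 nuclei against 2656 in nuclei of the whole library with no atrial gene, a log2 ratio of 0.09 (-0.23 to 0.39). Within CM4, whose level was 4644 CPM as a whole, the 6 nuclei were at 2821 against 4620 CPM, a ratio of -0.71 (-1.08 to -0.36). The slow myosin heavy chain gene Myh7 was at 806 against 1948 CPM within CM4, or -1.27 (-2.0 to -0.63), and Pln, the ventricular SERCA inhibitor, at 967 against 1392, or -0.53 (-1.19 to 0.08). As with Myl2 and Myl3, the ventricular list was thus lower in the CM4 nuclei richest in atrial UMIs than in CM4 nuclei without them. Myh7 gave most of that difference in the list. Against the whole library Myh7 was at -0.07 (-0.64 to 0.44) and Pln at 0.28 (-0.28 to 0.78). The transcription factor genes Irx3, Irx5, Hey2 and Hand1 were at 0 UMIs in the 8 nuclei, whose few UMIs allow no limit below the level of the other nuclei. Irx4 had 1 UMI, a ratio of 0.28 (-5.03 to 2.78) against the whole library.

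Genes of other cells were read in the same way. Fibroblast markers stood at 4359 CPM in the 8 nuclei against 944 in nuclei of the whole library with no atrial gene, and within CM4 at 3586 against 1929 CPM, a log2 ratio of 0.89 (0.55 to 1.23) with 5 of 7 above 0. Smooth muscle and pericyte markers stood at 1368 against 412 CPM over the whole library, but at 1572 against 1285 within CM4, a ratio of 0.29 (-0.23 to 0.78) with 5 of 6 above 0. The smooth muscle level was thus close to that of CM4 cells at large, 1379 CPM. Ryr2, which encodes the calcium release channel, was at 1750 against 6130 CPM over the whole library, and at 2055 against 2341 within CM4, a ratio of -0.19 (-0.63 to 0.23). The part of these markers in the atrial UMIs was not tested.

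In the 2 nuclei of MI-WT with 10 or more atrial UMIs, 1 CM1 and 1 CM4, the atrial list stood at 12869 against 3331 CPM, a ratio of 1.95 (1.71 to 2.18), and the ventricular list at 1155 against 2246, or -0.96 (-1.83 to -0.21). CM1 and CM4 cells of this library as a whole stood at 2885 and 6187 CPM on the atrial list and 2176 and 3095 on the ventricular list. Nppa was again most of the former, at 10477 against 2391 CPM. Of the 15 genes, 6 were above 0 in these nuclei. Beyond Nppa, the log2 ratio was 1.29 (0.60 to 1.91) for Pam on 21 UMIs. It was 2.38 (0.09 to 3.94) for Kcnj3 on 3 UMIs and 3.12 (0.06 to 5.01) for Tbx5 on 2. The intervals of Dkk3 and Clu included 0. Mybphl and Stard10 were among the genes with 0 UMIs there, and so few UMIs allow no limit below the level of the other nuclei.

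Among genes outside the set with 20 or more UMIs in the 34 nuclei of MI-KO with at least 2 atrial genes, the 10 highest against nuclei with none were Fgf12, Eln, Gpx3, Pdzrn4, Igfbp5, Epha4, Col1a1, Col1a2, Myl9 and Hint2. Fgf12, an intracellular regulator of sodium channels, led with 228 against 13 UMIs, a log2 ratio of 9.58 (8.78 to 10.51), but 57.5% of its UMIs lay in 1 nucleus and 10 of 34 nuclei held any. Elastin (Eln) had a ratio of 3.77 (3.35 to 4.18) and was found in 12 nuclei. The collagen genes Col1a1 (1.71) and Col1a2 (1.70) were found in 22 and 21 of the 34 nuclei, and the light chain gene Myl9 (1.61) in 24. Among the nuclei with under 10 atrial UMIs, Myl9 was at 0.67 (0.16 to 1.13) and Col1a2 at 0.80 (0.15 to 1.39), so part of their excess lay in the 8 nuclei richest in atrial UMIs. Within CM4, on 12 against 81 nuclei, the ratio was 8.28 (5.74 to 13.60) for Fgf12 on 61 against 1 UMIs, 1.53 (0.68 to 2.34) for Eln, 1.03 (0.38 to 1.65) for Col1a1, 1.76 (1.09 to 2.41) for Col1a2 and 1.33 (0.87 to 1.78) for Myl9, while Hint2 was at 0.43 (-0.82 to 1.52).

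The other genes of the motor and of the calcium pump were read from lists set down by name. Of 16 genes of the myosin motor (heavy chains, other light chains, light chain kinases and phosphatase), 13 had enough UMIs between MI-KO and MI-WT. Of these, 1 was called higher, Myl9 at 0.67, and 0 lower, where 3.94% and 3.68% of all genes were, with a list median of 0.08. The Sham pair gave the same count, with Myl9 at 0.76, where 5.74% and 5.61% of all genes were called. Between MI-WT and Sham-WT, 4 of 13 were called higher, Myh7 (0.81), the skeletal light chain gene Myl1 (0.88), Myl9 (0.83) and the phosphatase subunit gene Ppp1r12a (0.80), and 2 lower, the heavy chain gene Myh7b (-0.74) and the cardiac light chain kinase gene Mylk3 (-0.73), where 12.5% of all genes were called higher and 15.9% lower. Between MI-KO and Sham-KO, the same 4 genes were called higher and 0 lower, where 14.1% and 12.5% of all genes were, with Myh7 at 1.66. The alpha heavy chain gene Myh6 kept within the fold in the 4 comparisons, at 5252, 5782, 5294 and 5622 CPM in the order MI-WT, MI-KO, Sham-WT and Sham-KO.

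Of the 9 genes of the calcium pump list, 7 had enough UMIs between MI-KO and MI-WT and 6 between Sham-KO and Sham-WT, and 0 were called in either direction in both pairs, with list medians of 0.07 and -0.02. Sln, with 21 against 8 UMIs, was past the fold in the MI pair, and the 7 genes of the list were under it. Between MI-WT and Sham-WT, 3 of 6 were called lower, Pln (-1.32), the pump gene Atp2a2 (-0.71) and the calcium binding protein gene Hrc (-1.05), and 1 higher, the calsequestrin gene Casq1 (1.69), where 15.9% of all genes were called lower and 12.5% higher. Pln stood at 778, 818, 1945 and 2203 CPM in the 4 libraries, lower after MI as Myl2 and Myl3 were. Between MI-KO and Sham-KO, Pln (-1.43) and Hrc (-1.19) were called lower and Casq1 (2.27) higher, where 12.5% and 14.1% of all genes were.

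Chamber lists without the members were read over whole libraries. Of 11 atrial genes with enough UMIs, 1 was called higher between MI-KO and MI-WT, Dkk3 at 0.65, and 0 lower, where 3.94% and 3.68% of all genes were called, and the list median was 0.21. Between Sham-KO and Sham-WT, 1 was called higher, Nppa at 0.72, and 1 lower, Stard10 at -0.64, where 5.74% and 5.61% of all genes were called. Of 9 ventricular genes, 0 were called in the MI pair, with a median of 0.22, and 1 was called higher in the Sham pair, the potassium channel subunit gene Kcne1 at 0.62. Myl4 and Myl7 thus differed by more between the MI libraries than any of those 11 atrial genes. Mybphl, with 11 UMIs in MI-KO and 2 in MI-WT, had too few to be called, and Bmp10 had 0 UMIs in MI-WT, MI-KO and Sham-WT and 1 in Sham-KO. Between MI-WT and Sham-WT, 2 of 11 atrial genes were called higher, Nppa (3.74) and Clu (1.82), and 4 lower, while 3 of 9 ventricular genes were called higher and 5 lower. Over all genes of that pair 12.5% were called higher and 15.9% lower, so the atrial count of 2 of 11 higher lies near the background. Between MI-KO and Sham-KO, Nppa (3.45) and Clu (1.98) were again the 2 atrial genes called higher, with 2 lower, and 2 of 9 ventricular genes were called higher and 4 lower, where 14.1% and 12.5% of all genes were.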

How the data were processed

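Nuclei from 4 libraries, 1 per group, were read with a 10x Genomics 3′ kit. Per the study's methods and the labels, the authors aligned reads with Cell Ranger to an mm10/GRCm38 pre-mRNA reference, so intron reads were counted, and used Seurat 3; the annotation release is not given in the sources used here. They removed doublets with Scrublet, kept nuclei with 200 to 2500 genes, and kept cardiomyocytes. The deposited matrix holds UMI counts for 22574 genes in 8585 nuclei. The deposited metadata give counts of UMIs and genes, percent of mitochondrial UMIs and population labels per nucleus; 10 further columns of values were not used. No doublet caller was run again.

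UMIs were summed per library and population and divided by the total (CPM) with Python 3.11.15, numpy 2.4.6, scipy 1.17.1 and pandas 2.3.3. Intervals at 95% (exact Poisson for CPM, Clopper-Pearson for shares, conditional binomial for log2 ratios) cover counting error only. With 1 library per group no test was made. A gene was called at 1.5-fold with 20 or more UMIs over both sums. For nuclei with at least 2 atrial genes over nuclei with none, the 20 UMIs had to lie in the former. TMM factors came from edgeR 4.0.16 in R 4.3.3, as an alternative scaling. Interval code was checked on simulated counts. Libraries are named by their labels. Members and gene lists were chosen with earlier results of these data known. Genes named are the members, genes of the lists, the 3 genes most like each member, and the 10 genes highest in nuclei with at least 2 atrial genes over nuclei with none in the library with the most UMIs in such nuclei.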

Additional observations from a re-analysis of the deposited data

Results flagged for a closer look

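The ratio of the KO over the WT library in CM4 cells went one way after MI and the opposite way after Sham for both ventricular light chains. For Myl2 the log2 ratio of CPM was 0.61 after MI and -0.20 after Sham. For Myl3 it was 0.47 after MI and -0.25 after Sham. With 1 library per group, the difference between the surgeries was not tested. Under each of 5 other settings, chosen after seeing the data, these 4 ratios kept their sign; without the 10 nuclei per library with the most atrial UMIs they were 0.64, -0.18, 0.51 and -0.23 in the order given.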

How the results depend on the processing

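Among ratios of members between libraries, 92 values under other settings stayed within the counting interval of the reported value and 46 moved outside it. Myl7 for MI-WT over Sham-WT changed sign when thinned, with both intervals including 0. For MI-KO over MI-WT (log2), median of ratios scaling gave 0.23 for Myl2 and 0.30 for Myl3, the mean of CPM per nucleus gave 0.22 and 0.27, CM1 nuclei gave 0.21 for Myl2, 0.91 for Myl4 and 1.05 for Myl7, thinning to 1000 UMIs gave 0.29 for Myl3, and leaving out the 10 nuclei per library with the most atrial UMIs gave 1.07 for Myl4 and 1.27 for Myl7. For Sham-KO over Sham-WT, TMM gave 0.62 for Myl2 and 0.73 for Myl3, median of ratios 0.61 and 0.72, totals without the mitochondrial genome 0.56 and 0.68, thinning 0.45 and 0.57, with Myl7 at 0.0138, CM1 nuclei 0.68 and 0.86, and the mean per nucleus 0.45 and 0.54. For MI-WT over Sham-WT, TMM and median of ratios gave -0.52 for Myl2 and -0.65 for Myl3, CM1 nuclei -0.40 and -0.53, the mean per nucleus -0.62 and -0.75, and thinning -0.62 for Myl2 and -0.67 (-1.67 to 0.33) for Myl7, whose reported value was 0.50. For MI-KO over Sham-KO, Myl2 was at -0.90 under TMM, median of ratios and totals without the mitochondrial genome, and at -0.82 when thinned. Myl3 was at -1.07 under the first 3 of these and in CM1 nuclei. Myl4 was at 0.77 without the 10 nuclei and 0.57 in CM1 nuclei, and Myl7 at 0.80 and 0.73, with 1.64 when thinned. The cause of these shifts was not tested.

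Nuclei with atrial genes numbered 0, 7, 0 and 0 (MI-WT, MI-KO, Sham-WT, Sham-KO) when all 3 genes were required, 2, 8, 0 and 0 with 10 or more UMIs, and 0, 13, 1 and 3 when thinned. The log2 ratio of Myl2 in such nuclei was 0.49 in MI-KO with 10 or more UMIs and 0.57 (-0.87 to 1.70) in Sham-WT when thinned. Within CM4, as a setting added after seeing the data, the lists in nuclei with 10 or more atrial UMIs moved from 1.80 to 1.01 (atrial), 0.09 to -0.71 (ventricular), 2.21 to 0.89 (fibroblast) and 1.73 to 0.29 (smooth muscle). Genes called higher between MI-KO and MI-WT were 1.89% with a minimum of 50 UMIs and 8.98% with 5, and lower 1.73% and 8.13%. Between Sham-KO and Sham-WT, 9.14% were higher with 5 UMIs, and 3.08% and 10.3% were lower with 50 and 5. No paired analysis was possible because each group holds 1 library and no test was made. Depth limits Sln, Myl7 and Myl4 most, with 38, 558 and 926 UMIs over all nuclei.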
